A study of Mus musculus with 64 samples.

Results

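Testes of Dnmt3l+/- mice, which carry a single working copy of Dnmt3l, were set against testes of Dnmt3l+/+ mice of the same line at P10.5, between postnatal days 10 and 11. The members were chosen by their labels, as the whole-testis RNA-seq libraries of these genotypes, and are 6 of the 64 samples of the series: 3 Dnmt3l+/- and 3 Dnmt3l+/+. The 3 Dnmt3l-/- libraries of the same line were left out of this comparison and are given beside it only as the other end of the allele series. Each library came from polyadenylated RNA of 1 mouse, with mutants and controls matched for RNA input. The deletion that makes the Dnmt3l allele and the strain background of the line are not given in the sources used here. The question was whether losing 1 copy of Dnmt3l already changes the testis transcriptome.

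DNMT3L is a relative of the DNA methyltransferases that has no catalytic activity of its own. It binds DNMT3A and the unmethylated tail of histone H3, and with DNMT3A it lays down DNA methylation in male germ cells before birth, when they are arrested prospermatogonia. Males without it lose methylation at retrotransposons and imprinted loci, express retrotransposons and fail in meiosis, whereas heterozygous males are known to be fertile. At P10.5 the testis holds Sertoli cells, Leydig cells, spermatogonia and the first cells that enter meiosis.

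The 6 libraries held 28500020 to 39321449 reads assigned to genes, and 18297 to 18724 of 26385 listed genes had at least 1 read. Their labels as testis were borne out by their markers: Clu of Sertoli cells stood between 1770 and 2520 RPKM (mapped reads scaled by exon length and library size), and Dazl of germ cells between 139 and 196 RPKM. No pair of libraries was close enough to be 1 library deposited under 2 names, since the mean chi-square per gene between libraries was at least 6.91. The first principal component, 44.7% of the variance, put the Dnmt3l+/+ replicate 1 and Dnmt3l+/- replicate 2 libraries at one end and Dnmt3l+/- replicates 1 and 3 at the other, so it did not separate the genotypes. The same 2 libraries of the first end held most reads of Spink8, an epididymal protease inhibitor, with 1486 and 1670 reads, against 161, 437, 5 and 2 in the others. The part of attached epididymis in the results below was not tested.

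The targeted gene was read at a level between those of both homozygotes. Dnmt3l (ENSMUSG00000000730, chr10:77504692-77526367 on the plus strand of mm9) was counted at 50, 50 and 66 reads in the Dnmt3l+/+ libraries, at 33, 38 and 30 reads in Dnmt3l+/- and at 3, 3 and 4 reads in Dnmt3l-/-. In RPKM these were 0.721, 0.807 and 1.02 in Dnmt3l+/+, 0.569, 0.582 and 0.374 in Dnmt3l+/-, and 0.0402, 0.037 and 0.0464 in Dnmt3l-/-. The 3 genotypes did not overlap, and the Dnmt3l-/- libraries stood far below the others, as labelled. P10.5 testes of the Morc1 line, with Morc1+/+, Morc1tg/+ and Morc1tg/tg libraries pooled, read 0.28 to 0.776 RPKM and spanned all Dnmt3l+/- values. This level therefore cannot check each Dnmt3l+/- or Dnmt3l+/+ label. The heterozygous mean, 0.508 ± 0.117 RPKM (SD, n = 3), was 59.9% of the Dnmt3l+/+ mean of 0.849 ± 0.152 (SD, n = 3).

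In the fit across all genes (edgeR's quasi-likelihood test with Benjamini-Hochberg adjustment) the log2 fold change of Dnmt3l was -0.74 (SE 0.245), with an unadjusted p = 0.0137 and an adjusted p = 1. Its 95% interval ran from -1.29 to -0.19 and so held the value of -1 that a loss of 1 copy in 2 would give. The exact two-sided permutation test on RPKM gave p = 0.1, the smallest that 3 libraries against 3 allow. The heterozygous mean also lay within 1 standard error of the average of both homozygous means, above it by 0.0633 RPKM (SE 0.0804). On the log2 scale, where the Dnmt3l-/- end rests on 3 or 4 reads a library, it lay 1.39 above the midpoint (SE 0.242, adjusted p = 0.00295 by edgeR). The log2 midpoint is the geometric mean of both homozygous levels and lies under their average. A level at that average is therefore above the log2 midpoint by construction, and the value of 1.39 does not test for 1 dose of 2. At 30 to 66 reads a library, the difference between Dnmt3l+/- and Dnmt3l+/+ did not pass the threshold among all genes tested. Aire, the thymic regulator of self-antigen expression, overlaps the start of Dnmt3l on the other strand, and the libraries do not keep strand. Its own count was 1 to 9 reads in all 9 libraries.

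P10.5 is a late age at which to read Dnmt3l. In sorted germ cells of the Morc1 line, the gene stood between 90.5 and 104 RPKM at E16.5 (4 libraries) and between 32.6 and 39.3 RPKM at E18.5 (4 libraries). It was between 2.06 and 3.42 RPKM at P2.5 (5 libraries) and between 0.035 and 0.293 RPKM at P10.5 (7 libraries). Whole testes of that line read 0.28 to 0.776 RPKM at P10.5 (8 libraries), most of them above the sorted germ cells of the same age. The germ cell ranges pool heterozygous Morc1tg/+ and homozygous mutant Morc1tg/tg libraries, and the testis range pools these genotypes and Morc1+/+. The germ cell libraries were made with a different kit, and all come from another mouse line, so they are set beside the testis values without a test. The 6 compared testes were thus sampled after the stage at which germ cells contained most of this mRNA, and no embryonic library of the Dnmt3l line was analysed here.

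**Figure D1:**
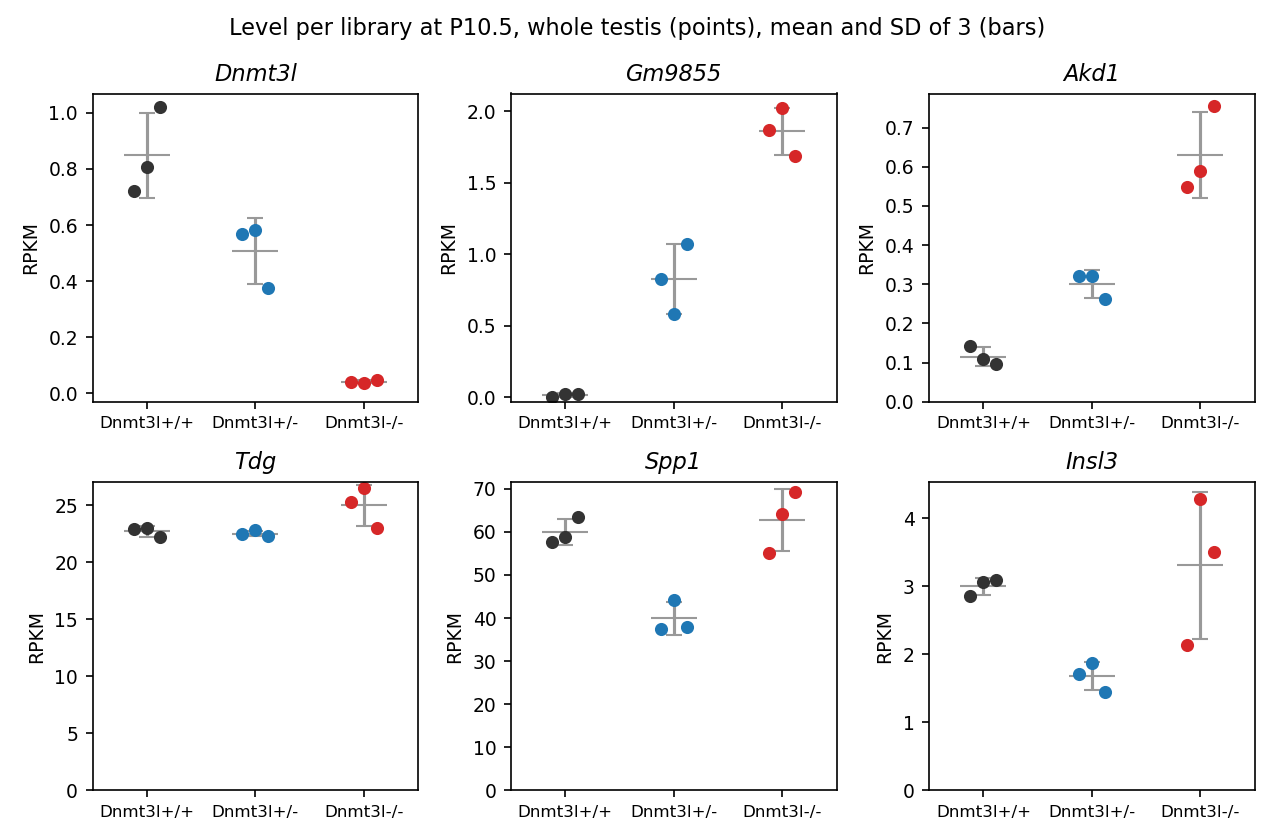
RPKM of 6 genes in each of the 9 Dnmt3l line libraries at P10.5, by genotype. Points are libraries, horizontal bars the mean and error bars the SD of 3 libraries. Dnmt3l is highest in Dnmt3l+/+ and Gm9855 and Akd1 are highest in Dnmt3l-/-, each with Dnmt3l+/- between and no overlap between genotypes, Tdg overlapped between Dnmt3l+/+ and Dnmt3l+/-, and Spp1 and Insl3 were lowest in Dnmt3l+/-.

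At the level of gene counts, almost no difference between Dnmt3l+/- and Dnmt3l+/+ testes passed the threshold. Retrotransposon transcripts, which the paper followed in Dnmt3l-/- testes, were not measured here. Of 15370 genes tested, 1 was higher in Dnmt3l+/- (0.00651%) and 0 were lower at an adjusted p under 0.05 by edgeR. At an unadjusted p under 0.05 there were 287 genes (1.87%), of which 121 (0.787%) were higher and 166 (1.08%) lower. A share near 0.05 would be expected with no difference at all, so a low count is not by itself a measure of likeness. DESeq2 called 2 genes, 1 in each direction. Groups that did not overlap in library-scaled counts were found for 523 genes that were higher (3.4%) and 540 that were lower (3.51%) in Dnmt3l+/-. With no difference, 3 libraries would lie apart from 3 others, in either direction, in a share near 0.1 of genes.

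Most genes were measured well enough to bound the effect in RNA of the whole testis. The median log2 fold change was -0.002, and the central 95% of genes lay between -0.40 and 0.33. For 11988 genes (78%) the 95% interval of the difference lay within 1.5-fold in either direction, and for 14295 (93%) it lay within a log2 fold change of 1. Among the 6877 genes with a mean above 10 RPKM the first share was 98.6%, but among the 3018 genes under 1 RPKM it was 17.6%. A moderate difference in a weakly expressed gene, Dnmt3l included, could be missed at this depth. The paper describes germ cells as a small share of the early postnatal testis. It holds that transcripts of somatic cells probably weaken changes seen in whole testis. A larger change within germ cells, in a gene that somatic cells also express, could therefore lie inside these intervals.

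The complete loss of Dnmt3l gave larger counts. In a fit of all 9 libraries, 6845 of 15665 genes (43.7%) differed between Dnmt3l-/- and Dnmt3l+/+, 3001 (19.2%) of them higher and 3844 (24.5%) lower, and 7411 (47.3%) differed between Dnmt3l-/- and Dnmt3l+/-. The same fit called 1 gene between Dnmt3l+/- and Dnmt3l+/+. The comparisons share libraries, so their counts are not independent of each other. In Dnmt3l-/- 13 of 13 pan-germ-cell genes and 22 of 22 early meiosis genes were lower, and 13 of 16 Sertoli cell genes were higher. The part of cell makeup in the Dnmt3l-/- counts was not tested, so they are not a scale for the dose of Dnmt3l within a cell.

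**Figure D2:**
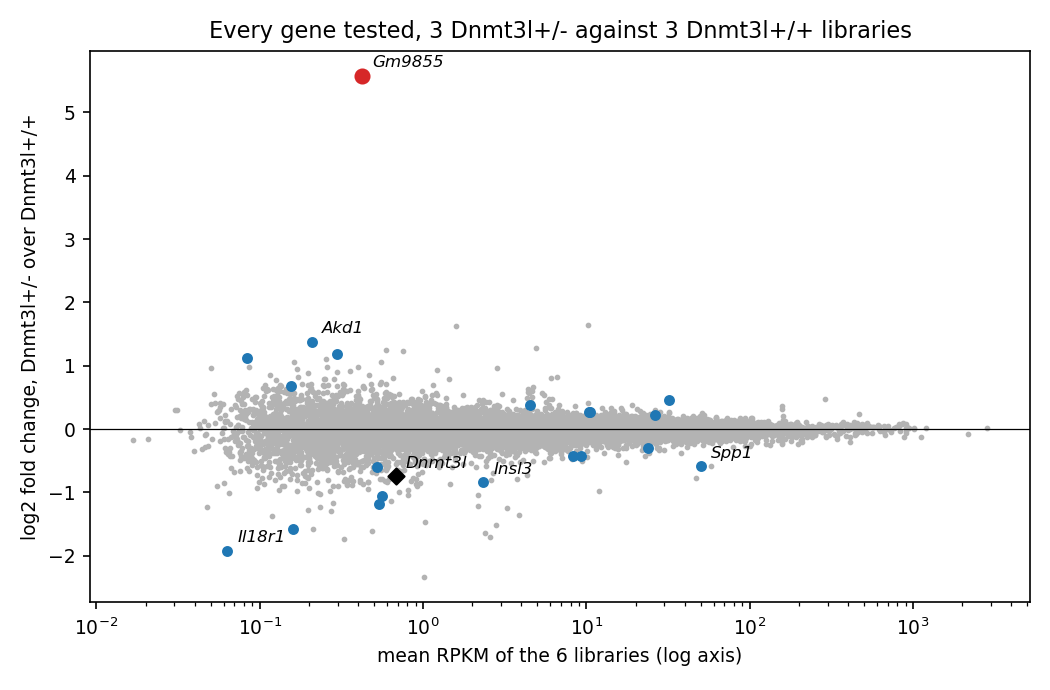
Log2 fold change of Dnmt3l+/- over Dnmt3l+/+ (vertical axis) against the mean RPKM of the 6 libraries (horizontal axis, logarithmic) for the 15370 genes tested. The red point is Gm9855, the only gene past the threshold, blue points are the genes with the 10 smallest p-values in each direction that did not pass, and the black diamond is Dnmt3l; the spread narrows as the level rises.

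The single gene past the threshold was Gm9855 (ENSMUSG00000085666, chr10:41773919-41775160 on the minus strand of mm9), annotated as a pseudogene of 1 exon of 1242 bases. Reads numbered 0, 1 and 1 in Dnmt3l+/+, 33, 26 and 59 in Dnmt3l+/-, and 96, 112 and 100 in Dnmt3l-/-. All 3 heterozygous libraries stood above all wild-type libraries and below all Dnmt3l-/- libraries. The 118 heterozygous and 2 wild-type reads gave a ratio of 57.2, with a 95% interval of 15.5 to 478 from an exact binomial test, which covers counting error only. The adjusted p was 0.0468 (edgeR), close to the threshold. With replicate number added to the fit it was 0.112 (edgeR), and a stricter filter on low counts did not test the gene. The call was kept without Dnmt3l+/- replicate 2 (adjusted p = 0.0364) and lost without each of the other 5 libraries in turn, at adjusted p-values of 0.0996 to 0.645 (edgeR), while the fitted log2 fold change stayed between 5.03 and 5.95. On the log2(RPKM + 0.1) scale, where the added 0.1 weighs on levels near 0, limma gave 2.98 (adjusted p = 0.0397). The fitted log2 fold change of 5.58 depends on the prior count, since wild-type libraries held 2 reads in all.

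The heterozygous level of Gm9855 was also near the average of the homozygous levels. It averaged 0.827 ± 0.246 RPKM (SD, n = 3) in Dnmt3l+/-, which was 44.5% of the 1.86 ± 0.163 RPKM (SD, n = 3) in Dnmt3l-/-. The difference from the average of both homozygous means was -0.111 RPKM (SE 0.149). On the log2 scale the heterozygote lay 2.20 above the midpoint (SE 0.354, adjusted p = 0.00202 by edgeR), a scale on which the wild-type end rests on 2 reads. As for Dnmt3l, a level at the average of both homozygous means lies above the log2 midpoint by construction.

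Gm9855 is a processed copy of Tdg, the thymine DNA glycosylase that removes oxidised methylcytosine, and RefSeq names it Tdg-ps2. It aligned to the coding part of the Tdg transcript over all 1242 bases with no gap and 9 differences, an identity of 99.3%. Of the 1193 windows of 50 bases, the length to which the reads were trimmed, 924 were identical to Tdg and 269 (22.5%) differed from it by at least 1 base. The mapping tolerated as many as 2 mismatches, and 70 windows (5.87%) had more differences than that. Whether a read with an exact match in one copy and a mismatched one in the other was kept as unique is not stated. The stretch of 100 bases with most differences, at chr10:41774023-41774122 on the minus strand of mm9, is shown because reads can be assigned to Gm9855 or Tdg only through such bases. Capitals mark the 4 positions at which the copies differ.
Gm9855: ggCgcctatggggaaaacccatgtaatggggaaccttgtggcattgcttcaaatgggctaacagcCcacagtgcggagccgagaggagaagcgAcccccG
Tdg: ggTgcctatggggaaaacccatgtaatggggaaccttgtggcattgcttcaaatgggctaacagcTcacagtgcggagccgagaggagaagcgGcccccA
Outside the capitals both stretches are the same, so a 50-base read from between them has matches of equal quality in Gm9855 and Tdg, and reads with more than 1 location were discarded by the authors.

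Tdg itself was level between Dnmt3l+/+ and Dnmt3l+/-. It had 22.9, 23 and 22.2 RPKM in Dnmt3l+/+ and 22.5, 22.8 and 22.3 RPKM in Dnmt3l+/-, from 2524 to 3460 reads per library. The groups overlapped, and the log2 fold change was -0.003 with a 95% interval of -0.142 to 0.135. The reads counted for Gm9855 were therefore few beside those of Tdg, at most 59 against at least 2524 in the heterozygotes. In Dnmt3l-/- Tdg read 25.3, 26.5 and 23 RPKM, a log2 fold change of 0.187 over Dnmt3l+/+ (adjusted p = 0.0435 by edgeR). Tdg lies 4.57 Mb from Dnmt3l and Gm9855 lies 35.7 Mb from it on the other side. These counts cannot tell transcripts of the pseudogene from transcripts of a Tdg allele that carries some of the same bases, so the identity of the Gm9855 reads is uncertain.

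**Figure D3:**
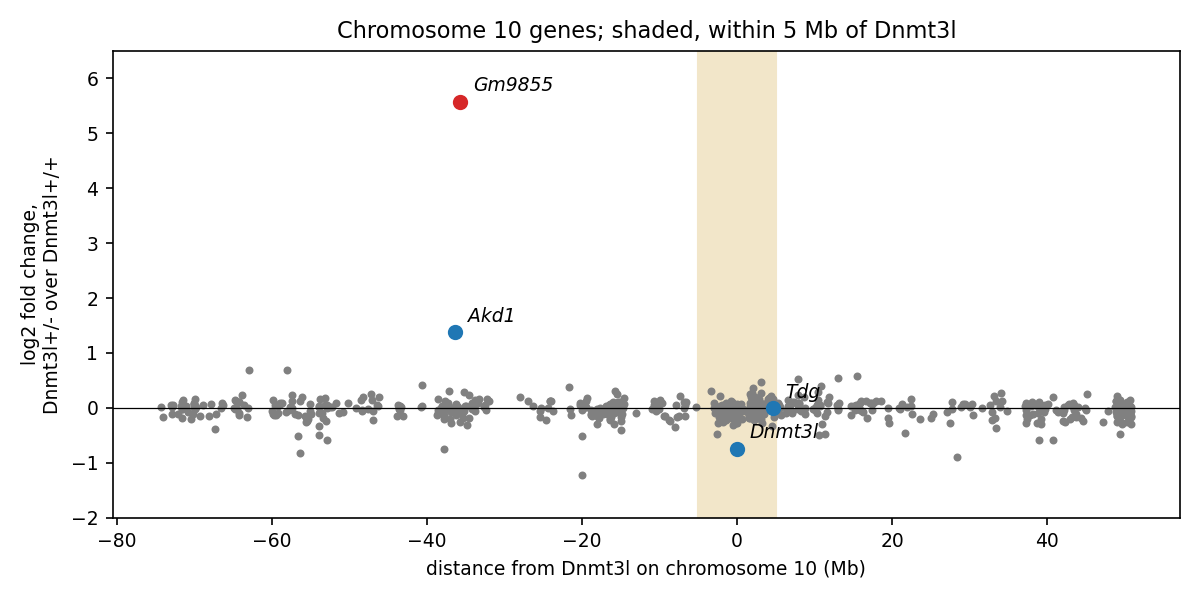
Log2 fold change of Dnmt3l+/- over Dnmt3l+/+ for each tested gene of chromosome 10 (points), against distance from Dnmt3l in Mb. The shaded band holds genes within 5 Mb of Dnmt3l. Gm9855 (red, past the threshold) and Akd1 (blue, not past it) stand above neighbouring genes, and Dnmt3l lies below 0 among neighbours near 0.

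The gene with the next smallest p among those with higher values, Akd1 (ENSMUSG00000091415), lies near Gm9855 at chr10:41036053-41153094 on the plus strand, 0.621 Mb away. It encodes an adenylate kinase, named Ak9 in RefSeq. Its counts were 22, 15 and 14 in Dnmt3l+/+, 42, 47 and 47 in Dnmt3l+/- and 92, 107 and 146 in Dnmt3l-/-, again without overlap between the genotypes. The log2 fold change between Dnmt3l+/- and Dnmt3l+/+ was 1.38 (SE 0.246), with an unadjusted p = 0.000296 and an adjusted p = 1 by edgeR, so it did not pass. The heterozygous mean of 0.301 ± 0.0351 RPKM (SD, n = 3) was 47.8% of the Dnmt3l-/- mean and lay 0.0714 RPKM (SE 0.038) under the average of the homozygous means.

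Genes around this pair stayed under the threshold. A further 17 tested genes had their centre within 1 Mb of that of Gm9855, a window set after the values were seen. None of them had an unadjusted p under 0.05 by edgeR, DESeq2 called none of them at an adjusted p under 0.05, and their log2 fold changes ran from -0.31 to 0.30.

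The levels of Gm9855 and Akd1 also differed between mouse lines of the series, and that of Akd1 within the Miwi2 line. All 8 P10.5 whole-testis libraries of the Morc1 line, which is on the FVB/N background, held 72 to 104 reads of Gm9855 (1.6 to 2.64 RPKM) whatever their Morc1 genotype. Some of these are labelled preliminary, and Morc1+/+ replicate 1 appears both as a preliminary and as another library. The 4 libraries of the Miwi2 line held 0 or 1 read each. The Dnmt3l+/+ libraries thus resembled the Miwi2 line in this count, the Dnmt3l-/- libraries reached the range of the Morc1 line, and the Dnmt3l+/- libraries lay between. Akd1 stood at 0.979 to 1.49 RPKM in the Morc1 line, at 0.114 and 0.159 RPKM in the libraries labelled Miwi2+/- and at 1.9 and 2.09 RPKM in those labelled Miwi2-/-. Tdg differed little, from 21.3 to 24.2 RPKM in the Morc1 line and from 18.6 to 20.8 RPKM in the Miwi2 line. Whether the strain of origin of chromosome 10 differed between the genotypes of the Dnmt3l line was not tested.

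**Figure D4:**
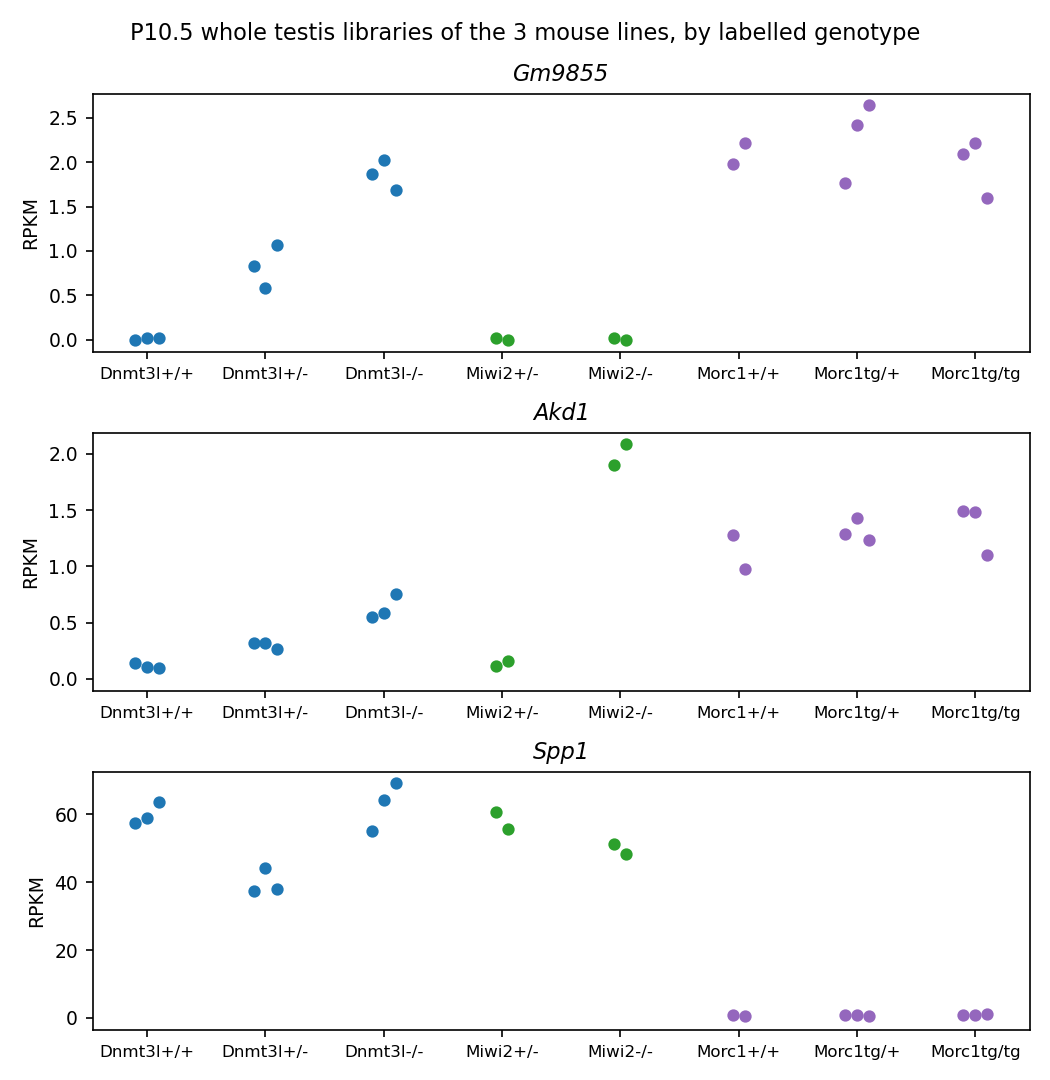
RPKM of Gm9855, Akd1 and Spp1 in every P10.5 whole-testis library of the Dnmt3l (blue), Miwi2 (green) and Morc1 (purple) lines, by labelled genotype; points are libraries. Gm9855 is near 0 in Dnmt3l+/+ and in the Miwi2 line and at 1.6 to 2.64 in the Morc1 line, and Spp1 is at most 1.21 in the Morc1 line.

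The genes immediately around Dnmt3l showed no difference past the threshold. Of 193 tested genes within 5 Mb, Dnmt3l left out, 0 passed by edgeR or by DESeq2. At an unadjusted p under 0.05 there were 4 (2.07%), all lower in Dnmt3l+/-, beside 1.87% of all genes tested in either direction and 1.08% lower. The median log2 fold change of the 193 was -0.032. Within 1 Mb, 2 of 27 genes (7.41%) had an unadjusted p under 0.05 by edgeR, both lower, and the median was -0.058. Icosl, the ligand of the costimulatory receptor ICOS and the nearest tested gene on the right, had a log2 fold change of -0.17 (SE 0.109, adjusted p = 1 by edgeR). Pfkl, the liver-type phosphofructokinase on the left, had one of -0.27 and an unadjusted p = 0.015. In Dnmt3l-/- the fit of all 9 libraries called 97 of the same 193 genes against Dnmt3l+/+, beside 43.7% of all genes.

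Among the other 9 genes with the smallest p-values and higher values in Dnmt3l+/-, none passed the threshold. Besides Akd1 these were Slc25a41, Gtdc1, 1700048O20Rik, Arrdc3, Rnf138, Tdrd12, Nlrc5 and Glp2r, and in each of them the heterozygous libraries lay above the wild-type ones. Tdrd12, a tudor protein needed for secondary piRNA production, read 9.26, 9.7 and 9.1 RPKM in Dnmt3l+/+ and 11.6, 11.1 and 11.1 RPKM in Dnmt3l+/-. Its log2 fold change was 0.28 (SE 0.0835, unadjusted p = 0.00888, adjusted p = 1 by edgeR), whereas in Dnmt3l-/- it was lower than in Dnmt3l+/+ by -1.30 (adjusted p = 6.94e-06). Arrdc3, an arrestin-domain adaptor of receptor trafficking, read 26.4, 28.8 and 26.7 RPKM in Dnmt3l+/+ and 37.3, 30 and 44 RPKM in Dnmt3l+/-. It was higher still in Dnmt3l-/-, by a log2 fold change of 0.89 over Dnmt3l+/+ (adjusted p = 0.00218). Rnf138, a ubiquitin ligase of DNA repair, and Gtdc1, a glycosyltransferase-like protein, had heterozygous log2 fold changes of 0.23 and 0.27 and were lower in Dnmt3l-/-, at -0.23 and -0.32.

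Il18r1, the receptor of interleukin 18, and 9 other genes had the smallest p-values among lower values: Spp1, Insl3, Zfp648, Col6a5, Arl10, Krt80, Mia1, Fmod and Btg2. None passed the threshold in the edgeR fit. Spp1, which encodes the secreted matrix protein osteopontin, was the nearest to it. Its RPKM was 57.6, 58.9 and 63.5 in Dnmt3l+/+, 37.4, 44.3 and 37.9 in Dnmt3l+/- and 55, 64.1 and 69.2 in Dnmt3l-/-. The heterozygous libraries were below those of both homozygotes without overlap, so the level did not follow the number of Dnmt3l copies. The log2 fold change between Dnmt3l+/- and Dnmt3l+/+ was -0.58 (SE 0.0818, adjusted p = 0.359 by edgeR), and DESeq2 called it with an adjusted p = 1.01e-05. Against the midpoint of both homozygotes it was -0.64 (adjusted p = 0.000454 by edgeR). Spp1 also marked the lines apart, at 48.3 to 60.8 RPKM in the Miwi2 line and 0.419 to 1.21 RPKM in the P10.5 testes of the Morc1 line.

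Insl3, the Leydig cell hormone that guides testis descent, showed the same order. It read 2.86, 3.06 and 3.1 RPKM in Dnmt3l+/+ and 1.71, 1.87 and 1.45 RPKM in Dnmt3l+/-, without overlap, and 2.14, 4.28 and 3.51 RPKM in Dnmt3l-/-. The log2 fold change was -0.84 (SE 0.192, unadjusted p = 0.00168, adjusted p = 1 by edgeR). Fmod, the collagen-binding proteoglycan fibromodulin, and Col6a5, a collagen VI chain, had log2 fold changes of -0.43 and -0.60. Their levels in Dnmt3l-/- were within 0.16 of Dnmt3l+/+ on the log2 scale, at 0.01 and 0.16. Il18r1, the keratin gene Krt80 and Mia1 rested on 3 to 29 reads per library.

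None of the 29 gene lists held a member past the threshold. Of their 391 genes, 373 were found in the files by symbol, 8 through RefSeq synonyms and 10 not at all, and 350 were tested. At an unadjusted p under 0.05 there were 18 list members (5.14%), beside 1.87% of all genes tested. The list share was near the 0.05 expected with no difference, but above the share of all genes tested in the same fit. Members of a list share libraries and cell makeup, so they are not separate measurements. The lists were fixed with earlier results of these data known. Of the 29 list medians, 12 kept their sign with any single library left out. In these bulk libraries fewer cells of a type and less RNA per cell cannot be told apart.

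In the DNA methylation machinery, 0 of 22 tested members passed in either direction, and Dnmt3l was the 1 member with an unadjusted p under 0.05. The median log2 fold change of the list was 0.002, and for 20 members the 95% interval lay within 1.5-fold. Dnmt3a, the catalytic partner of DNMT3L, read 26.2, 25.1 and 25 RPKM in Dnmt3l+/+ and 25.8, 24 and 23.2 RPKM in Dnmt3l+/-, with a log2 fold change of -0.06 (SE 0.0673). Dnmt3b, the other de novo enzyme, read 22.5, 25.8 and 23.1 RPKM against 27.6, 24.9 and 26.1 RPKM, a log2 fold change of 0.15 (SE 0.0769). The groups overlapped for both enzymes. Dnmt1, the maintenance enzyme, and its recruiter Uhrf1 had log2 fold changes of 0.04 (SE 0.0933) and -0.01 (SE 0.102).

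The demethylation branch was as even. The oxidases Tet1, Tet2 and Tet3 had log2 fold changes of 0.02, 0.00 and 0.02, with standard errors of 0.115, 0.112 and 0.0783. Readers and cofactors showed the same: Mbd1, Mbd2, Mbd3 and Mbd4, which bind methylated DNA or belong to that family, lay between -0.05 and 0.00. Uhrf2 stood at -0.04, Trdmt1, a tRNA methyltransferase of the same family, at 0.03 and Nsd1, a histone H3 lysine 36 methyltransferase, at 0.03. Trim28, the corepressor of zinc-finger proteins, was the most abundant member at 145, 163 and 155 RPKM in Dnmt3l+/+ and 151, 155 and 157 RPKM in Dnmt3l+/-. Zfp57, which guards imprints with it, had a log2 fold change of -0.07 (SE 0.165), and Kdm1b, the histone demethylase needed for maternal imprints, one of 0.01 (SE 0.0873). Hells, a chromatin remodeller that aids methylation, read 53.4 RPKM in Dnmt3l+/- replicate 1 and 37.5 to 44.9 RPKM in the other 5 libraries. Ctcfl, the germline paralogue of CTCF, had the largest positive value in the list, 0.27 (SE 0.159), with overlapping groups.

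In Dnmt3l-/- testes 13 of these 22 members differed from Dnmt3l+/+, 3 higher and 10, Dnmt3l among them, lower, beside 19.2% higher and 24.5% lower of all genes tested. In the same libraries 13 of 13 pan-germ-cell genes and 22 of 22 early meiosis genes were lower and 13 of 16 Sertoli cell genes were higher, and the part of this in the values of other lists was not tested. Ctcfl differed by -2.72, Dnmt3b by -1.10, Hells by -1.03, Dnmt1 by -0.70 and Tet1 by 0.69 on the log2 scale, whereas the corresponding heterozygous values were 0.27, 0.15, 0.15, 0.04 and 0.02. For Dnmt3b, Hells, Dnmt1 and Ctcfl the heterozygote lay above the log2 midpoint of both homozygotes, by 0.70, 0.66, 0.40 and 1.63, with adjusted p-values of 0.000132, 0.00181, 0.00415 and 0.00023 (edgeR). For these genes the heterozygous level was thus nearer to the wild type than to the midpoint.

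Across all 15665 genes of that fit, 3412 (21.8%) departed from the log2 midpoint, 2345 (15%) with the heterozygote above it and 1067 (6.81%) below it. With upper quartile scaling the split was 1970 above and 1514 below, so the size of the excess above the midpoint depended on the scaling. A gene whose level follows the copy number on the linear scale also lies above the log2 midpoint, whichever homozygote is higher. The counts therefore do not tell such genes from genes whose heterozygous level is near 1 homozygote. The part of cell makeup in them was not tested. Without Dnmt3l+/- replicate 1 the count was 1792, with 1430 above and 362 below.

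No member of the germ cell lists passed, and their medians lay on both sides of 0. All 22 early meiosis genes had a positive log2 fold change, with a median of 0.20, beside 49.3% of all genes tested with a positive value. These genes share the libraries and their cell makeup, so they are not separate measurements. Sycp3, of the synaptonemal complex, averaged 23.6 RPKM in Dnmt3l+/+ and 28.9 RPKM in Dnmt3l+/- (log2 fold change 0.30, SE 0.15). Mei1, needed for meiotic double-strand breaks, had a log2 fold change of 0.33 (SE 0.135, unadjusted p = 0.036, adjusted p = 1 by edgeR). The summed level of the list was 281, 327 and 218 RPKM in Dnmt3l+/+ and 365, 310 and 266 RPKM in Dnmt3l+/-. The groups overlapped, and leaving out single libraries moved the median between 0.02, without Dnmt3l+/+ replicate 3, and 0.35, without Dnmt3l+/+ replicate 2.

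Other germ cell lists gave medians nearer to 0, which moved with single libraries left out: from 0.04 to 0.18 for pan-germ-cell genes, from -0.077 to 0.028 for undifferentiated and from -0.034 to 0.177 for differentiating spermatogonia, and from -0.152 to -0.001 for pachytene and later genes. For the 13 tested pan-germ-cell genes it was 0.12, with Dazl, the RNA-binding regulator of germ cell entry into meiosis, at 141, 162 and 139 RPKM in Dnmt3l+/+ and 196, 156 and 160 RPKM in Dnmt3l+/-. Mael, of the nuage, had a log2 fold change of 0.17 (SE 0.0709, unadjusted p = 0.0372) without overlap. For the 17 genes of undifferentiated spermatogonia the median was -0.04. Lin28a, a let-7 blocker, had a log2 fold change of 0.07 and Pou5f1, the pluripotency factor OCT4, one of -0.39 (SE 0.15, unadjusted p = 0.0288). For the 6 genes of differentiating spermatogonia the median was 0.08, with Sohlh1, a transcription factor of that step, at 0.09 and Ccnd2, a cyclin, at -0.10. Of 12 pachytene and later genes 7 were tested, with a median of -0.11. Hspa2, a testis chaperone, read 16 to 18.8 RPKM and Mybl1, the pachytene regulator, 2.24 to 3.59 RPKM.

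The piRNA pathway, which guides methylation to retrotransposons before birth, held 22 tested members with a median of 0.075 and 0 past the threshold. Fkbp6, its most abundant member here, read 150, 154 and 142 RPKM in Dnmt3l+/+ and 148, 162 and 150 RPKM in Dnmt3l+/-. In Dnmt3l-/- 21 of the 22 were lower than in Dnmt3l+/+, as were all 13 pan-germ-cell genes and 24.5% of all genes tested. Germline genes that promoter methylation silences in somatic cells had a median of 0.14 over 14 members, with Slc25a31, a germ cell ADP/ATP carrier, at 0.18 (SE 0.0714, unadjusted p = 0.0327). In Dnmt3l-/- all 14 were lower, again beside all 13 pan-germ-cell genes and 24.5% of all genes. The Morc family had a median of 0.09 over 4 tested members, with Morc1, the germline ATPase studied in this series, at 0.215 (SE 0.111) and Morc2a at 0.02 (SE 0.0948), and the median became -0.01 without Dnmt3l+/- replicate 1.

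Imprinted genes, whose marks depend on germline methylation, showed no member past the threshold among 34 tested, and a median of -0.03. H19, the maternal noncoding RNA, read 76, 108 and 117 RPKM in Dnmt3l+/+ and 87.3, 74.7 and 100 RPKM in Dnmt3l+/-, with overlap. Gnas, a G protein subunit, had the smallest p of the list, with 4.57, 4.63 and 4.63 RPKM in Dnmt3l+/+ and 3.7, 3.42 and 4.13 RPKM in Dnmt3l+/- (log2 fold change -0.29, SE 0.1, unadjusted p = 0.0172, adjusted p = 1 by edgeR). In Dnmt3l-/- Gnas was higher, by 0.44. The study lists or discusses Neb, Tmc2, Cdkl4, Kat2b and Rasgrf1 beside regions of altered methylation in Morc1 mutants, a choice made on libraries of this series, and all but Tmc2 passed the filter on low counts. Neb, a giant muscle filament protein, had a log2 fold change of 0.16 (SE 0.0838) and Kat2b, an acetyltransferase, one of -0.04 (SE 0.12). Cdkl4, a protein kinase, had one of -0.62 (SE 0.447) at means of 0.153 and 0.104 RPKM, and Rasgrf1, an imprinted exchange factor, one of -0.08 (SE 0.306). The list median was -0.06, and -0.22 without Dnmt3l+/+ replicate 2.

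**Figure D5:**
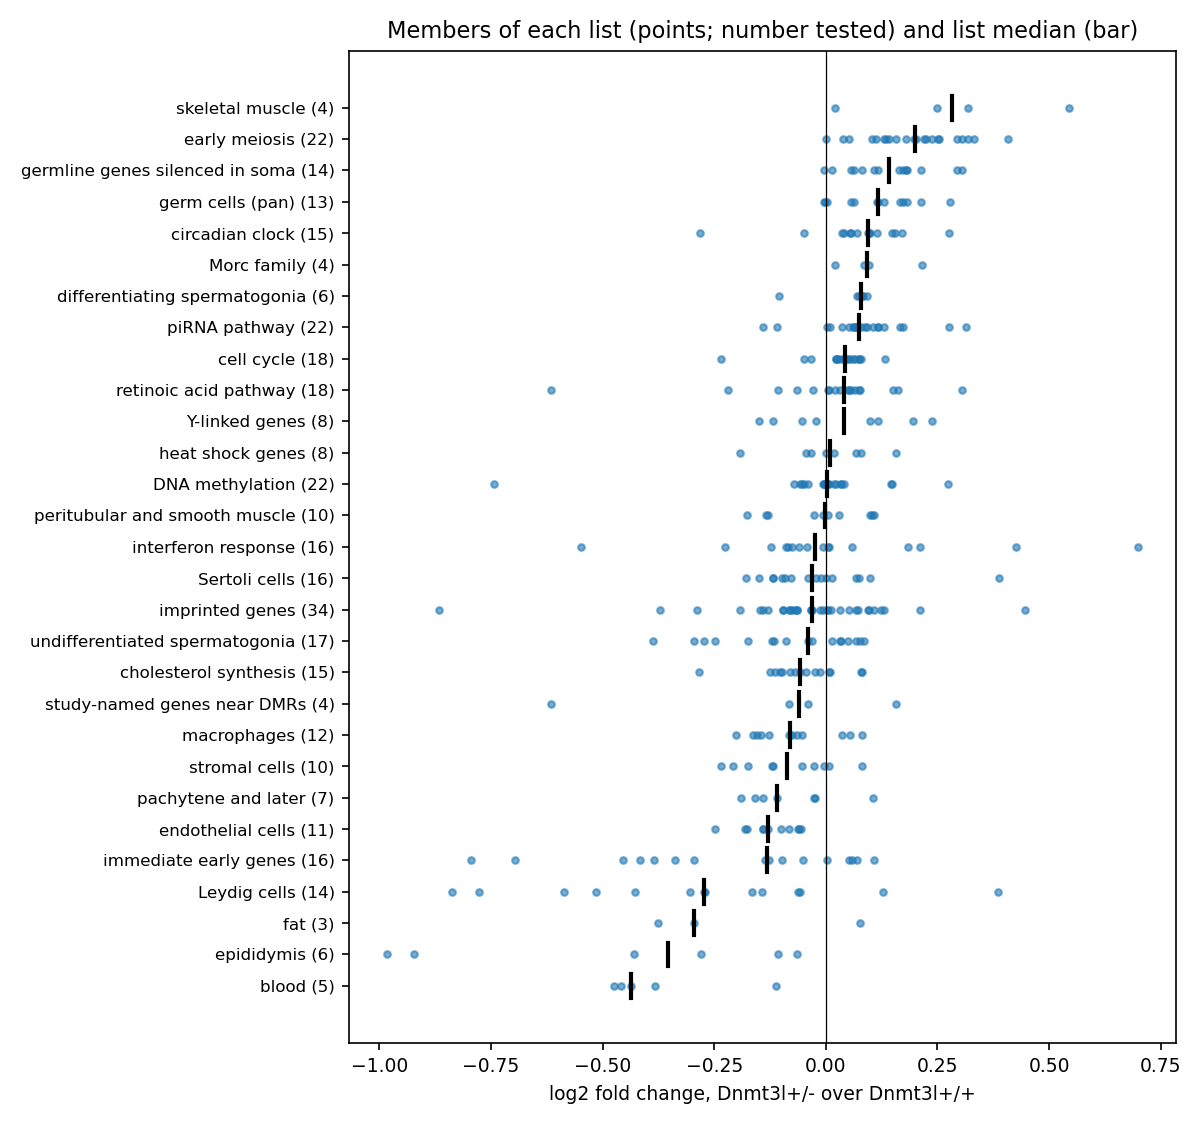
Log2 fold change of Dnmt3l+/- over Dnmt3l+/+ for the tested members of each of 29 gene lists (points), with the list median as a black bar and the number tested in parentheses. No member passed the threshold. Early meiosis genes lie at or above 0 and endothelial genes below 0, and the Leydig list reaches -0.84 at Insl3.

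Leydig cell genes had a summed level that did not overlap between the genotypes, as 1 of 29 lists (3.45%) did, beside 1063 of all genes tested (6.92%). It was 497, 490 and 553 RPKM in Dnmt3l+/+ and 480, 369 and 393 RPKM in Dnmt3l+/-, with a median log2 fold change of -0.27 over 14 members, beside -0.002 over all genes. None passed the threshold, 2 were lower at an unadjusted p under 0.05, beside 1.08% of all genes, and 2 had a positive value, beside 49.3% of all genes. The 14 members share libraries and cell makeup, so they are not separate measurements. Cyp11a1, which cleaves the side chain of cholesterol as the first step of steroid synthesis, averaged 69.2 and 46 RPKM (log2 fold change -0.59, SE 0.199, unadjusted p = 0.0157, adjusted p = 1 by edgeR). Star, which delivers cholesterol to it, averaged 20.4 and 14.3 RPKM, and Hsd3b1, the next enzyme and the most abundant member, read 89.3 to 128 RPKM against 74.4 to 107 RPKM. The transcription factor Nr5a1 averaged 85.6 and 81.8 RPKM and so differed less than these. The median stayed negative, from -0.392 to -0.155, with any single library left out. In Dnmt3l-/- the summed level was 598 to 652 RPKM, above every Dnmt3l+/+ and Dnmt3l+/- library.

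Cholesterol synthesis genes were close to even, with a median of -0.06 over 15 members. Fdps, which makes farnesyl diphosphate, had a log2 fold change of 0.01 (SE 0.0811). Sertoli cell genes had a median of -0.03 over 16 members. Clu had a log2 fold change of -0.08 (SE 0.128) and Sox9, the sex-determining factor, one of -0.15 (SE 0.0851).

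The 11 endothelial genes, which share libraries and cell makeup, had 0 positive values, beside 49.3% of all genes, with a median of -0.13, Kdr at -0.18 and Cdh5 at -0.06, and 0 passed. With single libraries left out the median ran from -0.214, without Dnmt3l+/- replicate 3, to -0.047, without Dnmt3l+/- replicate 1, and Cdh5 from -0.253 to 0.066. Medians were -0.09 for stromal cells, with Col1a1 at -0.23 and Col1a2 at -0.12, and -0.08 for macrophages, with Tyrobp at -0.14 and Lyz2 at -0.20. Peritubular and smooth muscle genes had a median of -0.001, with Acta2 at 0.03 and Smtn at -0.18, and one of -0.10 without Dnmt3l+/- replicate 3. Blood genes had one of -0.44 over 5 members, which ran from -0.757 without Dnmt3l+/+ replicate 1 to -0.097 without Dnmt3l+/+ replicate 2, and their summed level varied between 41.4 and 105 RPKM among the Dnmt3l+/+ libraries alone. Hbb-b1 had a log2 fold change of -0.38 (SE 0.269), or -0.02 without Dnmt3l+/+ replicate 2, and Hbb-b2 one of -0.46 (SE 0.291).

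Lists for tissue attached to the testis varied by library. The epididymal list had a median of -0.35, which became -2.58 without Dnmt3l+/- replicate 2, and Spink8 and Cst11 had log2 fold changes of -0.28 (SE 1.39) and -0.43 (SE 0.196). Its summed level was 107, 29 and 47.6 RPKM in Dnmt3l+/+ and 19.3, 103 and 19.5 RPKM in Dnmt3l+/-. Skeletal muscle genes summed to 10.4 RPKM in Dnmt3l+/- replicate 2 and 2.81 to 3.5 RPKM in the other 5 libraries, with a median log2 fold change of 0.28, Tnnt3 at 0.55 (SE 0.473) and Mylpf at 0.32 (SE 0.287). The median became -0.11 without that library. Among fat genes 3 were tested, with a median of -0.30, Plin1 at -0.38 (SE 0.116, unadjusted p = 0.01) and Lpl at 0.08, and the median became 0.17 without Dnmt3l+/+ replicate 3.

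Immediate early genes, which respond to handling within minutes, had a median of -0.13 over 16 members, 4 of them lower at an unadjusted p under 0.05, beside 1.08% of all genes, and 0 past the threshold. Of the 16, 5 had a positive value and 11 a negative one, beside 49.3% of all genes with a positive value. They were read in the same libraries, so they are not separate measurements. The median ran from -0.261, without Dnmt3l+/- replicate 3, to -0.059, without Dnmt3l+/- replicate 1. Fos averaged 3.32 RPKM in Dnmt3l+/+ and 2.04 RPKM in Dnmt3l+/- (log2 fold change -0.70, SE 0.21), and Junb 4.8 and 2.75 RPKM (log2 fold change -0.795, SE 0.324). Btg2, an antiproliferative member, read 24.7, 25.9 and 27.9 RPKM against 22.3, 22.6 and 18.8 RPKM. Jun, the most abundant, had a log2 fold change of -0.13 (SE 0.18), from -0.356 to 0.054 with single libraries left out. Heat shock genes had a median of 0.01, with Hsp90aa1 at 0.07 and Hspa1a at 0.16. Clock genes had one of 0.09, with Tef at 0.05 and Nr1d1 at 0.28, where Dnmt3l+/- replicate 3 read 17.3 RPKM and the other 5 libraries 11.6 to 12.6 RPKM.

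The remaining lists held no member past the threshold. The median was -0.03 for 16 interferon response genes, with Bst2 at -0.12 and Rsad2 at 0.70 (SE 0.26, unadjusted p = 0.0239), the last at 0.154 to 0.388 RPKM, and it became 0.17 without Dnmt3l+/+ replicate 3. It was 0.04 for 18 retinoic acid genes, with Aldh1a1 at -0.07 and Aldh1a2 at 0.15, for 18 cell cycle genes, with Pcna at 0.07 and Cdk1 at -0.235, and for 8 Y-linked genes, with Ube1y1 at 0.10 and Eif2s3y at 0.20 (SE 0.086, unadjusted p = 0.0487). For all 18 cell cycle genes the 95% interval lay within 1.5-fold.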

How the data were processed

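RNA of whole testes was prepared with the RNeasy Micro and TruSeq v2 kits by the authors, who trimmed reads to 50 bases, removed ribosomal reads, mapped the rest to annotated mm9 genes and repeats and then to the genome, kept reads with a single location and counted them per gene with HTSeq defaults. The submitters' processing notes name HTSeq and Bowtie without versions, and no source used here says which aligner placed the gene reads. The deposited tables hold raw counts and RPKM (reads per kilobase of exon and library size). No reads were remapped here. The 3 and 3 libraries were compared on counts with edgeR 4.0.16 in R 4.3.3 (filterByExpr, TMM, quasi-likelihood test, Benjamini-Hochberg, threshold 0.05), and all 9 libraries in a second fit. DESeq2 1.42.0 and limma 3.58.1, the latter on log2(RPKM + 0.1) of the deposited RPKM, were alternatives, with other scalings, filters, a replicate block and single libraries left out. Of these, only the main edgeR fits, of the 3 and 3 libraries and of all 9, were run on simulated counts. Named genes were Dnmt3l, the DNA methylation list, the 10 smallest p-values per direction, and per list the most abundant member and that with the smallest p, plus members past the threshold; some genes that the rule names are not reported here. Others (Aire, Cdkl4, Rasgrf1, Icosl, Pfkl, Sycp3, Cyp11a1, Star, Nr5a1, Fos and Junb) were added by position or after their values were seen. The members and lists were chosen with earlier results of these data known. Tdg and Gm9855 were aligned on the NCBIM37 genome and GENCODE vM1 transcripts. RPKM intervals and read ratios cover counting error only where stated, and p-values measure the spread between single mice. Small RNA tables were not used here.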

Additional observations from a re-analysis of the deposited data

How the results depend on the processing

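Without any replicate block, edgeR called 1 gene, Gm9855, with TMM, RLE or upper quartile scaling, with every gene of at least 1 read and in the fit of all 9 libraries. The count was 2 with DESeq2 (Gm9855 and Spp1) and 2 with limma on log2(RPKM + 0.1), where the second was Mir181d, with 1 read in each Dnmt3l+/+ library and 0 in each Dnmt3l+/- library. It was 0 with a stricter filter (CPM of at least 1 in 3 libraries), which does not test Gm9855, and 0 in a fit that holds the replicate block (Gm9855 adjusted p = 0.112). Deviations of same-numbered libraries correlated at -0.19, -0.37 and 0.27, and those of unlike-numbered libraries between -0.373 and 0.471. So few libraries cannot tell whether a shared number marks a common litter or batch. Leaving out single libraries gave 0 to 1 calls: Gm9855 was kept without Dnmt3l+/- replicate 2 and lost without any other library, with adjusted p up to 0.645. The log2 fold change of Dnmt3l ranged from -0.85 to -0.56 over 14 alternatives, with an adjusted p of at least 0.864. Genes departing from the midpoint numbered 1792 without Dnmt3l+/- replicate 1 and up to 4002 with other single libraries left out, beside 3412 with all libraries and 2381 with the block. The lists and the genes within 5 Mb of Dnmt3l held 0 calls in all 14 alternatives. Low counts limit genes under 1 RPKM.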
